A study of Mus musculus with 30 samples.

Results

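The 53 genes described here encode chromatin modifiers and remodellers: Polycomb subunits, heterochromatin proteins and H3K9 methyltransferases, the DNA methylation machinery, histone deacetylases and sirtuins, acetyltransferases, SWI/SNF, ISWI and CHD remodellers, and high mobility group (HMG) proteins. They were taken by gene symbol or synonym from the names of the array probes, and each gene was read from the probe with the highest mean log2 intensity over the 6 RNA samples. All 53 had a probe, among 21216 genes with one, and 52 were bright enough to test, among 12756 tested genes. Hdac11, a class IV deacetylase, was not above background in any of the 6 samples and was not tested.

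The study profiled mouse cells arrested at successive stages of early B cell development, all of strain C57BL/6. Pre-pro-B cells lacking E2A (E2A-/-), a helix-loop-helix transcription factor, and pre-pro-B cells lacking EBF (EBF-/-), another factor required for B cell commitment, were grown on the S17 stromal line with IL7, SCF and FLT3 ligand. Pro-B cells lacking the recombinase subunit RAG1 (RAG1-/-) were B220+ marrow cells grown for 10 d in medium with IL-7 and SCF, for which no stroma is named, so in every comparison with RAG1-/- genotype and culture cannot be told apart. RNA of 2 samples per genotype was hybridised to 2-colour arrays. There were 24 lists of genomic regions from chromatin immunoprecipitation sequencing (ChIP-seq), each of 1 library. Most covered histone marks and E2A binding in EBF-/- and RAG1-/- cells, and the binding of EBF, FOXO1 and CTCF in RAG1-/- cells. Others of the 24 came from E2A-/- pre-pro-B cells and A12, an E2A-/- T cell line. A retrovirus had put into these cells E47-ER (full-length E2A joined to the ligand-binding domain of the oestrogen receptor) or bHLH-ER (the same fusion without the activation domains). They had received tamoxifen at 1 uM for 1 h or 6 h. The remaining list, labelled Input2, was made without antibody from wild-type (WT) lymphoid cells per its label.

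Chromatin regulators set which genes a cell can use. Polycomb repressive complex 2 (PRC2) writes H3K27me3, a mark that PRC1 complexes with a CBX subunit can read, while H3K4me3 and H3K9/14ac mark active promoters and H3K4me1 and H3K4me2 also mark enhancers. DNA methyltransferases add methyl groups to CpG sites, deacetylases remove acetyl groups from histones and other proteins, and SWI/SNF, ISWI and CHD machines move or evict nucleosomes with ATP. In early lymphocytes, PRC2 and SWI/SNF activity are known to be needed for the pro-B stage.

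Before the members, the samples were compared with their labels. Levels are quantile-normalised log2 intensities throughout, and the 6 channels came from 4 arrays of 1 slide. Over the tested genes Pearson's r between replicates was 0.977 for E2A-/-, 0.988 for EBF-/- and 0.981 for RAG1-/-, a description across genes, and 1, 2 and 2 members differed by more than 2-fold between them. The labels do not say that replicates were separate animals or cultures, so p-values measure only the spread between these samples. Tcf3, which encodes E2A, was at 10.80 and 9.44 in E2A-/- cells, 13.41 and 13.39 in EBF-/- cells and 14.99 and 14.70 in RAG1-/- cells. The Ebf1 probe in EBF-/- cells and the Rag1 probe in RAG1-/- cells were above background in each sample. The labels do not say whether any of the 3 probes lies in a deleted part, so these levels do not check the genotypes.

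Several marker lists moved with genotype or sample. Of 10 pro-B markers, 10 were well above background in E2A-/- replicate 1 with a median level of 11.24, against 3 and 5.27 in replicate 2. The log2 of their summed intensity was 15.30 and 11.69 in these samples, 12.23 and 12.25 in EBF-/- cells and 20.34 and 20.06 in RAG1-/- cells. E2A-/- replicate 1 shared its array with RAG1-/- replicate 1 and stands apart in this respect. Of 6 mast cell or basophil markers, all 6 were above background in RAG1-/- replicate 2 (summed log2 intensity 11.91) and 2 in replicate 1 (7.40). The summed level of 11 myeloid markers was 17.17 and 17.14 in E2A-/- cells, 15.66 and 15.65 in EBF-/- cells and 14.26 and 16.06 in RAG1-/-, and that of 10 NK markers was 13.46 and 13.51, 14.56 and 14.61, and 10.44 and 11.20. Stromal markers summed to 13.01 and 12.84 in EBF-/- cells and to between 9.16 and 9.72 elsewhere, with at most 4 of 10 above background in any sample. T cell markers summed to 11.14 and 11.76 in E2A-/- cells, 15.21 and 15.19 in EBF-/- cells and 13.53 and 13.61 in RAG1-/-, and at most 3 of 5 erythroid markers were above background in any sample. Kdm5d, a Y-linked demethylase gene, was at 8.53 and 3.58 in the RAG1-/- samples, at 8.98 and 9.07 in EBF-/- and at 3.89 and 4.71 in E2A-/-. The part of these differences in the results on the members was not tested, and in bulk RNA fewer cells of a type and less RNA per cell cannot be told apart.

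More chromatin regulators differed between pro-B cells and either kind of pre-pro-B cells than between the pre-pro-B cells, as was the case for all tested genes. Between RAG1-/- and EBF-/- cells 28 of 52 members passed an adjusted p of 0.05 by limma with Benjamini-Hochberg adjustment over all genes, 19 higher and 9 lower in RAG1-/-. That is 53.8% of the members, beside 43.7% of all tested genes. Between RAG1-/- and E2A-/- cells 28 also passed, 20 higher and 8 lower (53.8%, beside 45.8% of all tested genes). EBF-/- and E2A-/- cells differed in 13 members, 9 higher and 4 lower in EBF-/- (25.0%, beside 24.2% of all tested genes). The RAG1-/- comparisons share the RAG1-/- samples, and the share of members called between EBF-/- and E2A-/- was close to the share of all genes.

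The median log2 difference of the members was 0.24 in EBF-/- against E2A-/-, 0.24 in RAG1-/- against EBF-/- and 0.30 in RAG1-/- against E2A-/-, where the medians over all tested genes were -0.01, 0.04 and 0.03. The means were 0.15, 0.05 and 0.21, beside 0.05, 0.04 and 0.09 over all tested genes, so between RAG1-/- and EBF-/- cells the mean of the members was near that of all genes. The median absolute log2 differences of the members were 0.31, 0.35 and 0.61, beside 0.32, 0.48 and 0.50 over all tested genes. In the same order, 4, 10 and 15 members passed the test and differed by more than 2-fold. The share of all tested genes that did so was not counted. The values of the 2 groups did not overlap for 37, 42 and 40 of the 52 members (71.2%, 80.8% and 76.9%), near the 68.3%, 74.5% and 74% of all tested genes whose groups did not overlap. By their brightest probes, 18 of the 52 passed in none of the 3 comparisons. RAG1-/- was higher than both other genotypes for 12, with no call between those, and lower in the same way for 5. At both steps 4 rose (Cbx1, Hdac6, Smarcd2 and Hmgb3). The shares of all tested genes with these patterns were not counted, so the patterns are not shown to be particular to the members. Under the 15 alternative settings Cbx1 was called in 5 for EBF-/- against E2A-/- and 8 for RAG1-/- against EBF-/-, and Hmgb3 in 11 and 5.

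**Figure D1:**
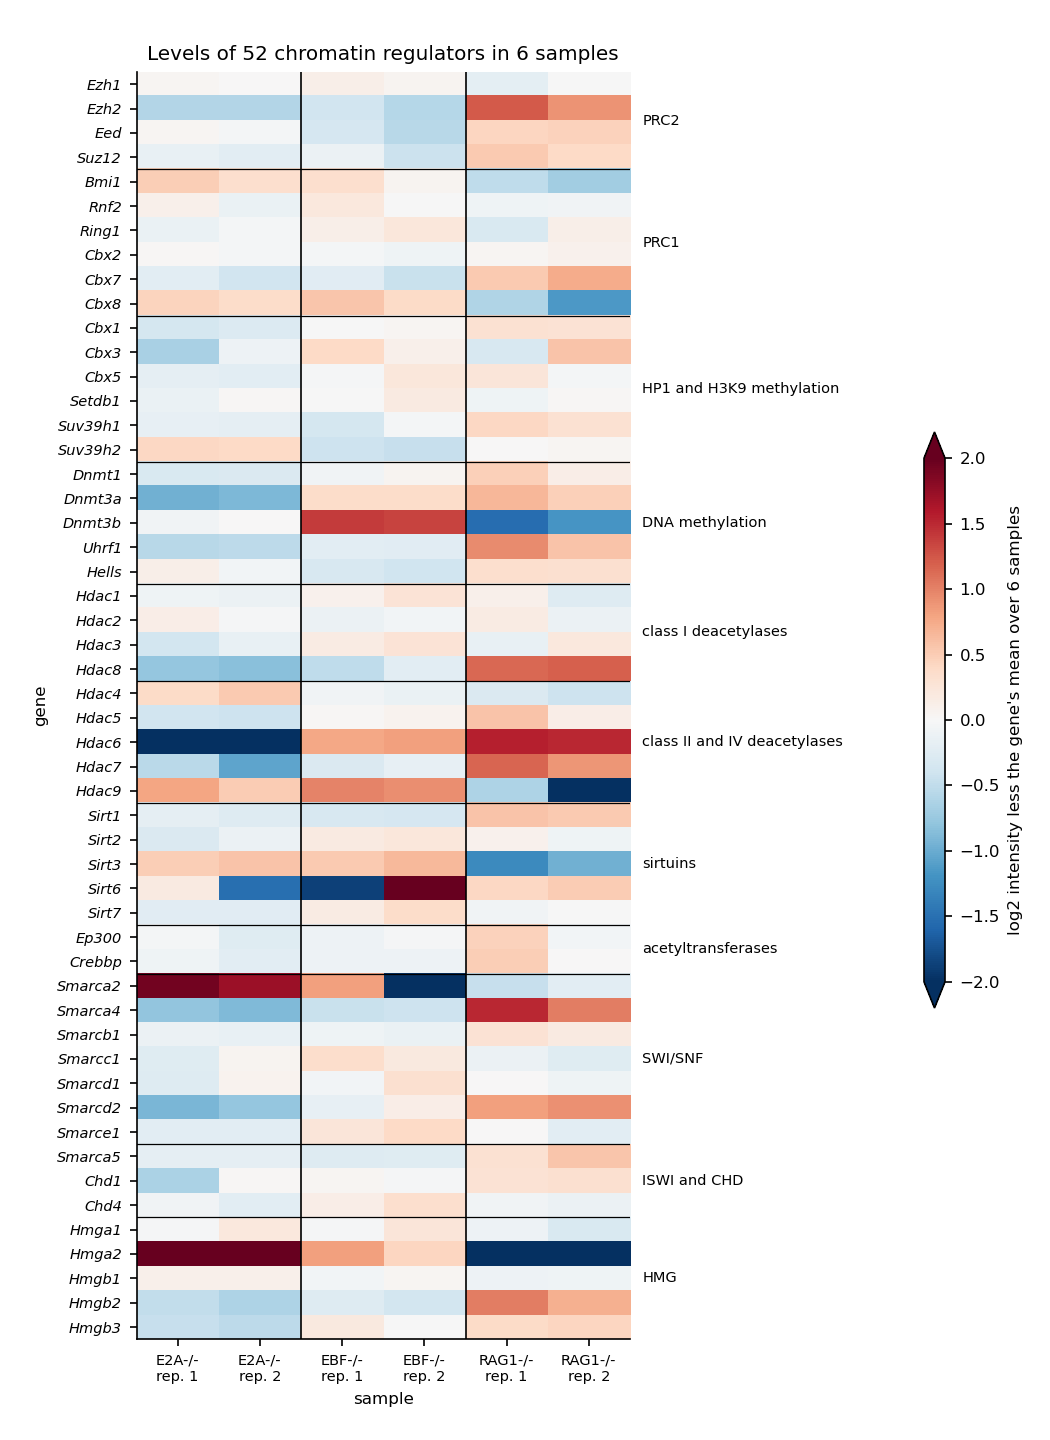
Heat map of the level of 52 chromatin regulators (rows, grouped by role) in each of the 6 RNA samples (columns, 2 per genotype); colour is log2 intensity less the gene's mean over the 6 samples, cut at -2 and 2. Hmga2 falls and Hdac6 rises from E2A-/- to RAG1-/- cells, Dnmt3b is highest in EBF-/- cells, and Sirt6, Smarca2 and Hdac9 show the widest gaps between replicates.

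Within PRC2, the catalytic subunit Ezh2 and its partners Eed and Suz12 were all higher in RAG1-/- pro-B cells than in either pre-pro-B population, while Ezh1, the alternative catalytic subunit, was not called in any comparison. Ezh2 (probe at chr6:47461634-47462529, mm8) was at 12.69 and 12.69 in E2A-/- cells, 12.90 and 12.71 in EBF-/- cells and 14.50 and 14.17 in RAG1-/- cells. The RAG1-/- samples lay above all 4 others. The difference from EBF-/- was 1.53 on the log2 scale (SE 0.14, limma adjusted p = 0.00248, 2.89-fold), and from E2A-/- it was 1.64 (SE 0.14, adjusted p = 0.00182).

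Eed, the subunit that binds H3K27me3, had a low point in EBF-/- cells. Its levels were 12.24 and 12.16 in E2A-/- cells, 11.86 and 11.64 in EBF-/- cells and 12.63 and 12.66 in RAG1-/-, with no overlap between any groups. It fell by 0.45 on the log2 scale from E2A-/- to EBF-/- (SE 0.09, adjusted p = 0.0301) and was 0.89 higher in RAG1-/- than in EBF-/- (SE 0.09, adjusted p = 0.00288) and 0.44 higher than in E2A-/- (adjusted p = 0.0177). Suz12, needed for PRC2 stability, was at 12.59 and 12.53, then 12.63 and 12.31, then 13.26 and 13.14 in the same order. Both RAG1-/- samples were above the rest, with differences of 0.73 from EBF-/- (SE 0.13, adjusted p = 0.0124) and 0.64 from E2A-/- (SE 0.13, adjusted p = 0.0172), and both Suz12 probes passed. Ezh1 lay between 7.36 and 7.66 in all 6 samples. Beside PRC2, a list of 24 cell cycle genes had 18 higher and 0 lower in RAG1-/- than in EBF-/- cells (median log2 difference 0.91) and 21 higher and 0 lower than in E2A-/- cells (0.76). The part of proliferation in the PRC2 values was not tested.

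The RefSeq promoters of Suz12 and Eed are shown because letters of cell cycle and B cell factor motifs fall within them. The Ezh2 promoter held none of the searched E2F, E-box, EBF or FOXO letters. No EBF or FOXO1 region of RAG1-/- cells was listed near Eed. Each sequence is the 250 bases before the annotated start on GRCm38.p6, 5′ to 3′ on the gene's strand. Capitals mark, in Suz12 (chr11:79992856-79993105, + strand), the E2F letters TTTCCCGC, which begin 219 bases before the start. In Eed (chr7:89980977-89981226, - strand) they mark the FOXO letters GTAAACA, 150 bases before the start, and the EBF letters TCCCTCGGGA, 54 bases before it.
Suz12: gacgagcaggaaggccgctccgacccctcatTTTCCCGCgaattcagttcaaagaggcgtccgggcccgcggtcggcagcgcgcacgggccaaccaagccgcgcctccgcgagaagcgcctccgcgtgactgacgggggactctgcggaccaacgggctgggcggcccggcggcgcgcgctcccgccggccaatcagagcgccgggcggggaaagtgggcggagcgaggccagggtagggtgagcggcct
Eed: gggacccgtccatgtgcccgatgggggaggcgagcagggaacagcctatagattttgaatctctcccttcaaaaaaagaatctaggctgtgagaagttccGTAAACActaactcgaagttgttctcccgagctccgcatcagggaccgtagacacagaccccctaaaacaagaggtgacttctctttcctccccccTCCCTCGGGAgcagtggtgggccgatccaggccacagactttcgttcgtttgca

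PRC1 subunits did not move together. Bmi1, which stimulates the ubiquitin ligase of PRC1 and sustains progenitor self-renewal, was lower in pro-B cells, and of the CBX subunits that can bind H3K27me3, Cbx8 was lower and Cbx7 higher. Bmi1 (chr2:18604114-18604173, mm8) was at 11.58 and 11.43 in E2A-/- cells, 11.43 and 11.16 in EBF-/- cells and 10.59 and 10.41 in RAG1-/- cells. RAG1-/- samples were below the other 4, by -0.79 against EBF-/- (SE 0.14, adjusted p = 0.0132) and by -1.01 against E2A-/- (SE 0.14, adjusted p = 0.00635), and both Bmi1 probes passed.

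Cbx8 (chr11:118852429-118852488, mm8) was at 11.91 and 11.83, 12.02 and 11.85, and 10.87 and 10.32 in E2A-/-, EBF-/- and RAG1-/- cells. It fell by 1.34 on the log2 scale against EBF-/- (SE 0.20, adjusted p = 0.00843) and by 1.28 against E2A-/- (SE 0.21, adjusted p = 0.00918). A second, dimmer Cbx8 probe gave -0.35 and -0.37 and did not pass. Cbx7 went the other way, from 8.35 and 8.18 in E2A-/- and 8.33 and 8.11 in EBF-/- to 9.09 and 9.31 in RAG1-/- cells, 0.98 above EBF-/- (SE 0.14, adjusted p = 0.00771) and 0.93 above E2A-/- (adjusted p = 0.00828). No PRC1 member differed between EBF-/- and E2A-/- cells by the test. The ligases Rnf2 and Ring1 and the subunit Cbx2 passed in no comparison, with differences between -0.27 and 0.26.

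The promoters of Bmi1 (chr2:18676768-18677017, + strand, GRCm38.p6) and Cbx8 (chr11:119040914-119041163, - strand) are printed because both genes carried an H3K27me3 region in RAG1-/- cells, as described with the marks. Neither window holds the searched E2F, E-box, EBF or FOXO letters, so nothing is in capitals.
Bmi1: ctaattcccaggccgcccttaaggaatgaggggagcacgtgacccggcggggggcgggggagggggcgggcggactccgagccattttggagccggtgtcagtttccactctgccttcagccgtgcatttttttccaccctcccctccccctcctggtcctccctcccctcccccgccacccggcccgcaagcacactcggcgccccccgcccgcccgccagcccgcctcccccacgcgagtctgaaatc
Cbx8: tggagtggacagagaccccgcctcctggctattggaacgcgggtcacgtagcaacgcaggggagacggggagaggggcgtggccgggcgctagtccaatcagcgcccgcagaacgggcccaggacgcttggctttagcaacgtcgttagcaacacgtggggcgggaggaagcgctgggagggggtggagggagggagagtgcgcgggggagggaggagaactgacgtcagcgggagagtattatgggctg

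Among other Polycomb genes, listed beside the members, 21 were tested, and 8 were higher and 5 lower in RAG1-/- than in EBF-/- cells. That is 61.9% called, beside 43.7% of all tested genes. Phf19, a PRC2 accessory protein that reads H3K36 methylation, had the largest difference of these at 2.79 (adjusted p = 0.00112), and 3.23 against E2A-/- (adjusted p = 0.000726).

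The heterochromatin genes gave small differences. Cbx1, which encodes HP1 beta, rose at both steps, by 0.33 (adjusted p = 0.0366) and 0.29 (adjusted p = 0.0333), for 0.62 in RAG1-/- against E2A-/- (SE 0.07, adjusted p = 0.00377). Cbx3 and Cbx5, which encode HP1 gamma and HP1 alpha, and the methyltransferase gene Setdb1 passed in no comparison with their brightest probes. However, 2 of 3 Cbx5 probes were called higher in RAG1-/- than in EBF-/- (up to 0.76) and E2A-/- cells (up to 0.77). For Cbx3, 1 of 3 probes was called higher in RAG1-/- than in E2A-/- cells. Of the H3K9 methyltransferases, Suv39h1 was higher in RAG1-/- cells by 0.56 against EBF-/- (adjusted p = 0.0195) and 0.53 against E2A-/- (adjusted p = 0.0219). By its brightest probe, the relative Suv39h2 was highest in E2A-/- cells, at 9.63 and 9.61, against 8.80 and 8.75 in EBF-/- cells and 9.21 and 9.25 in RAG1-/-. The 3 groups did not overlap. Suv39h2 fell by 0.85 on the log2 scale from E2A-/- to EBF-/- cells (SE 0.12, adjusted p = 0.0143) and was 0.46 higher in RAG1-/- than in EBF-/- (adjusted p = 0.0408), while RAG1-/- against E2A-/- gave -0.39 (adjusted p = 0.0599). A second, dimmer Suv39h2 probe gave 0.32 in RAG1-/- against E2A-/- and did not pass, so the order of these 2 genotypes depends on the probe.

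DNA methylation genes took opposite courses. The de novo methyltransferase Dnmt3a was low in E2A-/- cells, its relative Dnmt3b peaked in EBF-/- cells and was lowest in RAG1-/- cells, and Uhrf1, which brings the maintenance enzyme to replicated DNA, was highest in RAG1-/- cells. Dnmt3a (chr12:3906882-3907663, mm8) was at 8.85 and 8.91 in E2A-/- cells, 10.17 and 10.17 in EBF-/- cells and 10.48 and 10.29 in RAG1-/- cells. E2A-/- samples were below the rest, with EBF-/- 1.29 higher (SE 0.12, adjusted p = 0.00508) and RAG1-/- 2.82-fold higher (adjusted p = 0.00146), while RAG1-/- against EBF-/- gave 0.21 (adjusted p = 0.218). Of 3 Dnmt3a probes, 2 passed in each comparison with E2A-/-, and the 3 ranged from 0.54 to 2.23 in EBF-/- and from 0.12 to 2.59 in RAG1-/- against E2A-/-.

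Dnmt3b (chr2:153378788-153378847, mm8) was at 11.08 and 11.16 in E2A-/- cells, 12.56 and 12.50 in EBF-/- cells and 9.63 and 9.98 in RAG1-/- cells. Each group stood apart from the others. The rise from E2A-/- to EBF-/- was 1.41 (SE 0.13, adjusted p = 0.00542, 2.66-fold), and RAG1-/- was below EBF-/- by -2.73 (SE 0.13, adjusted p = 0.000713, 6.61-fold) and below E2A-/- by -1.32 (SE 0.13, adjusted p = 0.00264). Uhrf1 was at 13.89 and 13.91, 14.23 and 14.20, and 15.38 and 15.01 in the same order of genotypes. RAG1-/- exceeded EBF-/- by 0.98 (SE 0.12, adjusted p = 0.00512) and E2A-/- by 1.29 (SE 0.12, adjusted p = 0.00234), while EBF-/- against E2A-/- gave 0.31 (adjusted p = 0.145). The maintenance methyltransferase Dnmt1 passed only in RAG1-/- against E2A-/- (0.60, adjusted p = 0.0132), and Hells, a remodeller required for DNA methylation, only in RAG1-/- against EBF-/- (0.68, adjusted p = 0.007).

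The promoters of Uhrf1 (chr17:56303087-56303336, + strand, GRCm38.p6) and Dnmt3b (chr2:153649199-153649448, + strand) are printed for these opposite courses. Capitals mark the E2F letters TTCCCGCC in Uhrf1, 48 bases before the start, and the E-box letters CAGGTG in Dnmt3b, 247 bases before the start. E-boxes are the sites that helix-loop-helix factors such as E2A can bind.
Uhrf1: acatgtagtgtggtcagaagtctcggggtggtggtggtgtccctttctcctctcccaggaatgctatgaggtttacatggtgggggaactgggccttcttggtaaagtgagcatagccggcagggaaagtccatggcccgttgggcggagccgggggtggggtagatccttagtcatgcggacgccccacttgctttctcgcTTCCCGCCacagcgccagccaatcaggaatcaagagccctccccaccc
Dnmt3b: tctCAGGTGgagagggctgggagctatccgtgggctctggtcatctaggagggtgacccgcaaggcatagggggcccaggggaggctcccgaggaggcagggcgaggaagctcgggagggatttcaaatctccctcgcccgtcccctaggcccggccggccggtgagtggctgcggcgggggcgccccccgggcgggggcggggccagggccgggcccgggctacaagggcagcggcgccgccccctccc

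Of the class I deacetylases only Hdac8 passed. Hdac1, Hdac2 and Hdac3, the catalytic subunits of the main corepressor complexes, passed in no comparison, with log2 differences between -0.26 and 0.47. Hdac1 ranged from 13.06 to 13.60, Hdac2 from 9.25 to 9.54 and Hdac3 from 11.69 to 12.32 over the 6 samples. Hdac8, which deacetylates the cohesin subunit SMC3, was at 8.28 and 8.23 in E2A-/- cells, 8.56 and 8.85 in EBF-/- cells and 10.21 and 10.26 in RAG1-/- cells. The RAG1-/- samples were far above the other 4, by 1.53 against EBF-/- (SE 0.16, adjusted p = 0.00308) and 1.98 against E2A-/- (SE 0.16, adjusted p = 0.00153), and both Hdac8 probes passed.

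Every tested class II deacetylase differed between RAG1-/- and E2A-/- cells, in both directions. Hdac6, a mostly cytoplasmic tubulin deacetylase, showed the largest rise of any member. Its probe (chrX:7087267-7087326, mm8) was at 6.46 and 6.71 in E2A-/- cells, where 1 of 2 samples was well above background, at 9.68 and 9.73 in EBF-/- and at 10.46 and 10.42 in RAG1-/- cells. No groups overlapped. Hdac6 rose by 3.12 from E2A-/- to EBF-/- (SE 0.14, adjusted p = 0.00211, 8.69-fold) and by a further 0.73 to RAG1-/- (SE 0.14, adjusted p = 0.0165), and over 15 alternative settings the first of these ranged from 2.03 to 3.22.

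Hdac7, a lymphoid class IIa deacetylase that represses non-B-lineage genes in pro-B cells, was at 12.46 and 11.95 in E2A-/- cells, 12.72 and 12.84 in EBF-/- cells and 14.16 and 13.89 in RAG1-/- cells. It was higher in RAG1-/- cells by 1.25 (SE 0.21, adjusted p = 0.0113) and 1.82 (SE 0.21, adjusted p = 0.00383), and 0.57 in EBF-/- against E2A-/- did not pass (adjusted p = 0.128). Hdac4 ran downward, from 10.42 and 10.56 in E2A-/- to 9.97 and 9.91 in EBF-/- cells and 9.75 and 9.63 in RAG1-/- cells. The groups did not overlap, and Hdac4 fell by 0.55 from E2A-/- to EBF-/- (SE 0.12, adjusted p = 0.0349) and by 0.80 from E2A-/- to RAG1-/- (SE 0.12, adjusted p = 0.00697). Hdac5 was 0.75 higher in RAG1-/- than in E2A-/- cells (SE 0.14, adjusted p = 0.0134).

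Hdac9, the remaining class IIa gene, was lower in RAG1-/- cells, but its replicates there lay far apart. It was at 8.98 and 8.68 in E2A-/- cells, 9.18 and 9.11 in EBF-/- cells and 7.57 and 5.57 in RAG1-/- cells. The differences were -2.56 against EBF-/- (SE 0.62, adjusted p = 0.0302) and -2.27 against E2A-/- (SE 0.62, adjusted p = 0.0409), and they passed in 11 and 9 of 15 alternative settings.

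Sirtuins, the NAD-dependent deacetylases, also split. Sirt3, the mitochondrial sirtuin, was at 14.74 and 14.81 in E2A-/- cells, 14.77 and 14.89 in EBF-/- cells and 12.96 and 13.27 in RAG1-/- cells. EBF-/- against E2A-/- gave 0.06 (SE 0.13) and did not pass, and RAG1-/- lay below EBF-/- by -1.72 (SE 0.13, adjusted p = 0.00168, 3.28-fold) and below E2A-/- by -1.65 (adjusted p = 0.00154). Sirt1, a nuclear sirtuin, was at 10.997 and 10.91, 10.85 and 10.85, and 11.75 and 11.70 in the same order. Its RAG1-/- samples were above the others, by 0.88 against EBF-/- (SE 0.09, adjusted p = 0.00316) and 0.77 against E2A-/- (adjusted p = 0.00404). Sirt2 and Sirt7 were higher in EBF-/- than in E2A-/- cells by 0.41 (adjusted p = 0.0485) and 0.50 (adjusted p = 0.0271) and passed in no comparison with RAG1-/-. Sirt6 was above background in 4 of 6 samples, ranged from 4.15 to 8.30 within EBF-/- cells, and gave no call.

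The coactivator acetyltransferases passed in no comparison. Ep300 ranged from 8.56 to 9.26 and Crebbp from 11.94 to 12.64 over the 6 samples, and their largest log2 differences, 0.35 and 0.39 in RAG1-/- against E2A-/-, had SEs of 0.22 and 0.17. A dimmer Ep300 probe gave -1.55 in RAG1-/- against EBF-/- and did not pass.

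**Figure D2:**
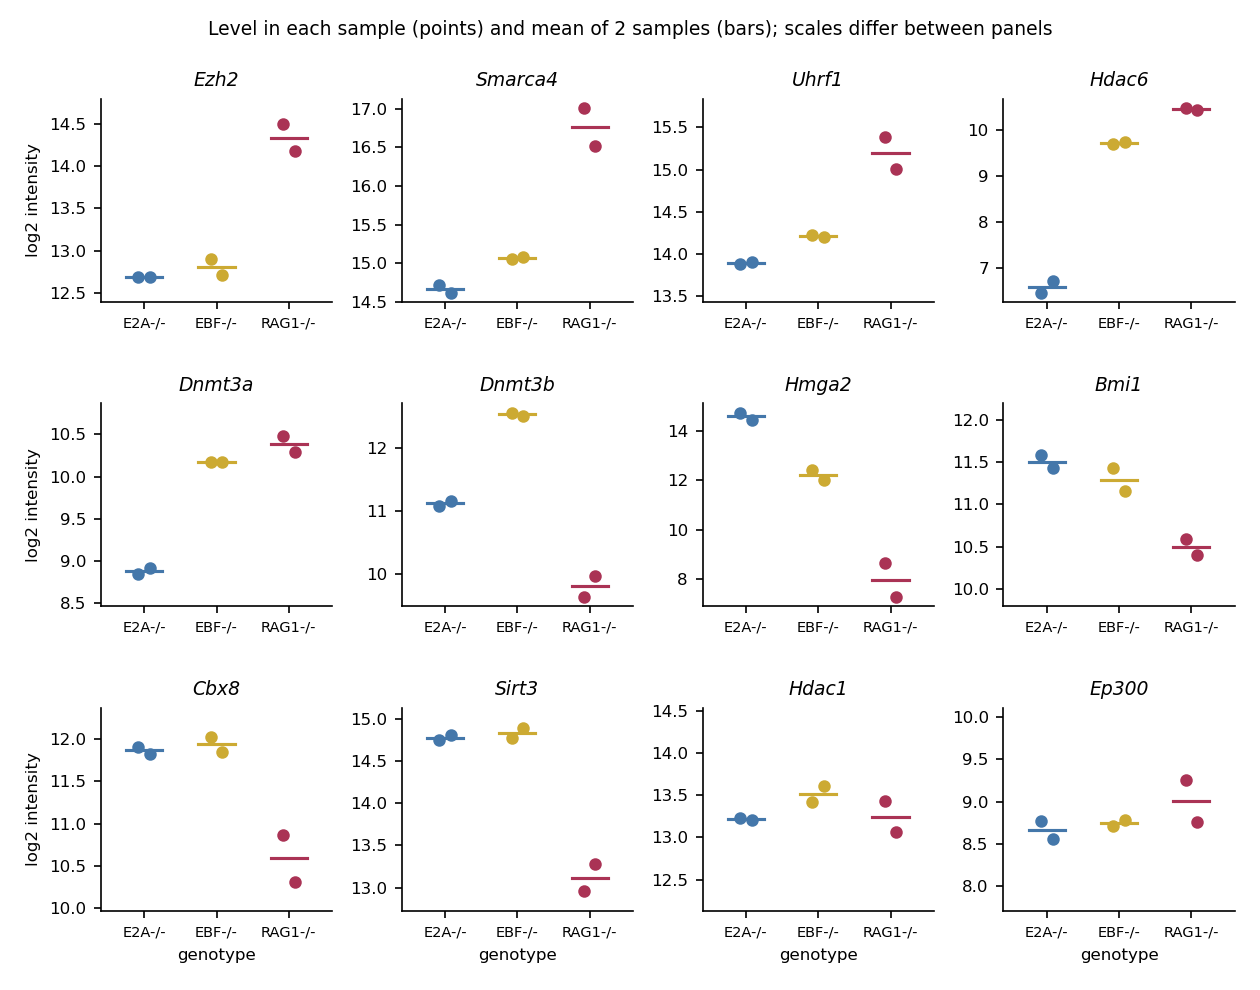
Level (log2 intensity, vertical axis, scale set per panel) of 12 members in each sample (points), with the mean of the 2 samples of a genotype as a bar. Ezh2, Smarca4 and Uhrf1 are highest in RAG1-/- cells, Hdac6 and Dnmt3a are lowest in E2A-/-, Dnmt3b peaks in EBF-/- at 12.56 and 12.50, Hmga2, Bmi1, Cbx8 and Sirt3 are lowest in RAG1-/-, and Hdac1 and Ep300 were not called.

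The SWI/SNF ATPase Smarca4 (BRG1) was higher in pro-B cells, and the accessory subunit Smarcd2, known for its role in granulocyte development, rose at each step. Smarca4 (chr9:21391477-21392875, mm8) was at 14.72 and 14.62 in E2A-/- cells, 15.05 and 15.08 in EBF-/- cells and 17.01 and 16.51 in RAG1-/- cells. RAG1-/- samples stood above the rest by 1.70 against EBF-/- (SE 0.16, adjusted p = 0.00263, 3.25-fold) and 2.09 against E2A-/- (SE 0.16, adjusted p = 0.00147), and all 3 Smarca4 probes passed in both. EBF-/- against E2A-/- gave 0.39 (adjusted p = 0.161).

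Smarcd2 was at 12.60 and 12.73, 13.35 and 13.64, and 14.34 and 14.43 in E2A-/-, EBF-/- and RAG1-/- cells. The 3 groups did not overlap. Its steps were 0.83 from E2A-/- to EBF-/- (SE 0.12, adjusted p = 0.0133) and 0.89 from EBF-/- to RAG1-/- (SE 0.12, adjusted p = 0.0057), for 1.72 in all (adjusted p = 0.00109, 3.29-fold). The core subunit Smarcb1 was 0.35 higher in RAG1-/- than in EBF-/- cells (adjusted p = 0.0266) and 0.37 higher than in E2A-/- (adjusted p = 0.0221). Smarce1 was highest in EBF-/- cells, 0.52 above E2A-/- (adjusted p = 0.0208) and with RAG1-/- at -0.42 below it (adjusted p = 0.0221), but its second probe had the opposite sign in both of these comparisons.

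The alternative ATPase Smarca2 (BRM) gave no call, and its EBF-/- samples lay far apart. Its levels ran from 10.65 to 10.86 in E2A-/-, from 5.15 to 9.76 in EBF-/- and from 8.48 to 8.72 in RAG1-/- cells. A second, dimmer Smarca2 probe passed as lower than in E2A-/- cells, by -1.15 in EBF-/- and -1.55 in RAG1-/-, and gave -0.41 in RAG1-/- against EBF-/- without passing. Smarcc1 was called lower in RAG1-/- than in EBF-/- cells by -0.46 (adjusted p = 0.0442), while its other probe gave 0.52. Smarcd1 passed in no comparison. Of the other remodellers, the ISWI ATPase Smarca5 was higher in RAG1-/- cells by 0.68 (adjusted p = 0.00973) and 0.62 (adjusted p = 0.012) with all 4 probes called. Chd1 and Chd4 were not called with their brightest probes. In RAG1-/- against EBF-/-, 2 of 3 Chd4 probes were called lower (to -0.65) and 1 of 3 Chd1 probes higher.

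The Smarcd2 promoter (chr11:106267633-106267882, - strand, GRCm38.p6) is shown because the gene rose from E2A-/- through EBF-/- to RAG1-/- cells. Capitals mark the E-box letters CAGGTG, 40 bases before the start.
Smarcd2: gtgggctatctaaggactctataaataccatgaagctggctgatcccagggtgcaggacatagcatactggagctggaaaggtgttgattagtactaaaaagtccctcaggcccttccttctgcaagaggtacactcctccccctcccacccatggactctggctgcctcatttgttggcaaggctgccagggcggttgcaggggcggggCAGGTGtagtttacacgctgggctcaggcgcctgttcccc

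HMG proteins held the largest fall of all members. Hmga2, an architectural factor of fetal and progenitor cells, dropped at both steps. Its probe (chr10:119764743-119764802, mm8) was at 14.74 and 14.44 in E2A-/- cells, 12.41 and 12.01 in EBF-/- cells and 8.66 and 7.28 in RAG1-/- cells. No 2 groups overlapped, and the RAG1-/- replicates differed from each other by more than the replicates of either other genotype. Hmga2 fell by 2.39 from E2A-/- to EBF-/- (SE 0.48, adjusted p = 0.0308, 5.24-fold) and by 4.24 from EBF-/- to RAG1-/- (SE 0.48, adjusted p = 0.00386, 18.9-fold). RAG1-/- against E2A-/- gave -6.63 (adjusted p = 0.00124, 98.8-fold), and all 3 Hmga2 probes passed in each comparison.

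Its relative Hmga1 was bright in all 6 samples, from 16.96 to 17.52, and gave -0.32 (adjusted p = 0.0301) and -0.29 (adjusted p = 0.0362) in RAG1-/- cells against EBF-/- and E2A-/-, but each call held in only 2 of 15 alternative settings. Hmgb2, an HMG-box protein abundant in proliferating cells, was at 15.68 and 15.55 in E2A-/- cells, 15.92 and 15.80 in EBF-/- cells and 17.19 and 16.89 in RAG1-/- cells. RAG1-/- was 1.18 above EBF-/- (SE 0.14, adjusted p = 0.00411) and 1.42 above E2A-/- (SE 0.14, adjusted p = 0.00237). Hmgb3, an X-linked HMG-box gene of blood progenitors, was at 13.91 and 13.85, 14.57 and 14.37, and 14.75 and 14.80. It rose by 0.59 (SE 0.08, adjusted p = 0.0123) and then 0.31 (adjusted p = 0.0375), for 0.90 in RAG1-/- against E2A-/- (adjusted p = 0.00197). Hmgb1 passed in no comparison with its brightest probe, while 2 of its 3 probes passed in each. These were lower in EBF-/- than in E2A-/- cells (to -1.06). In RAG1-/- cells they were higher than in EBF-/- (up to 1.49) and E2A-/- cells (up to 0.42), so the result for Hmgb1 depends on the probe.

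The Hmga2 promoter (chr10:120476470-120476719, - strand, GRCm38.p6) is shown for the size of this fall. Capitals mark the E2F letters TTCCCGCC, 136 bases before the start, in a stretch of repeated CT.
Hmga2: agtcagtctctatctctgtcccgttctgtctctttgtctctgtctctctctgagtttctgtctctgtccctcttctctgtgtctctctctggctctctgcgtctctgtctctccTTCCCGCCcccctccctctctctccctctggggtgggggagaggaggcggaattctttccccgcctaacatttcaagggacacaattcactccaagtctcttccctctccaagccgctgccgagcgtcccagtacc

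**Figure D3:**
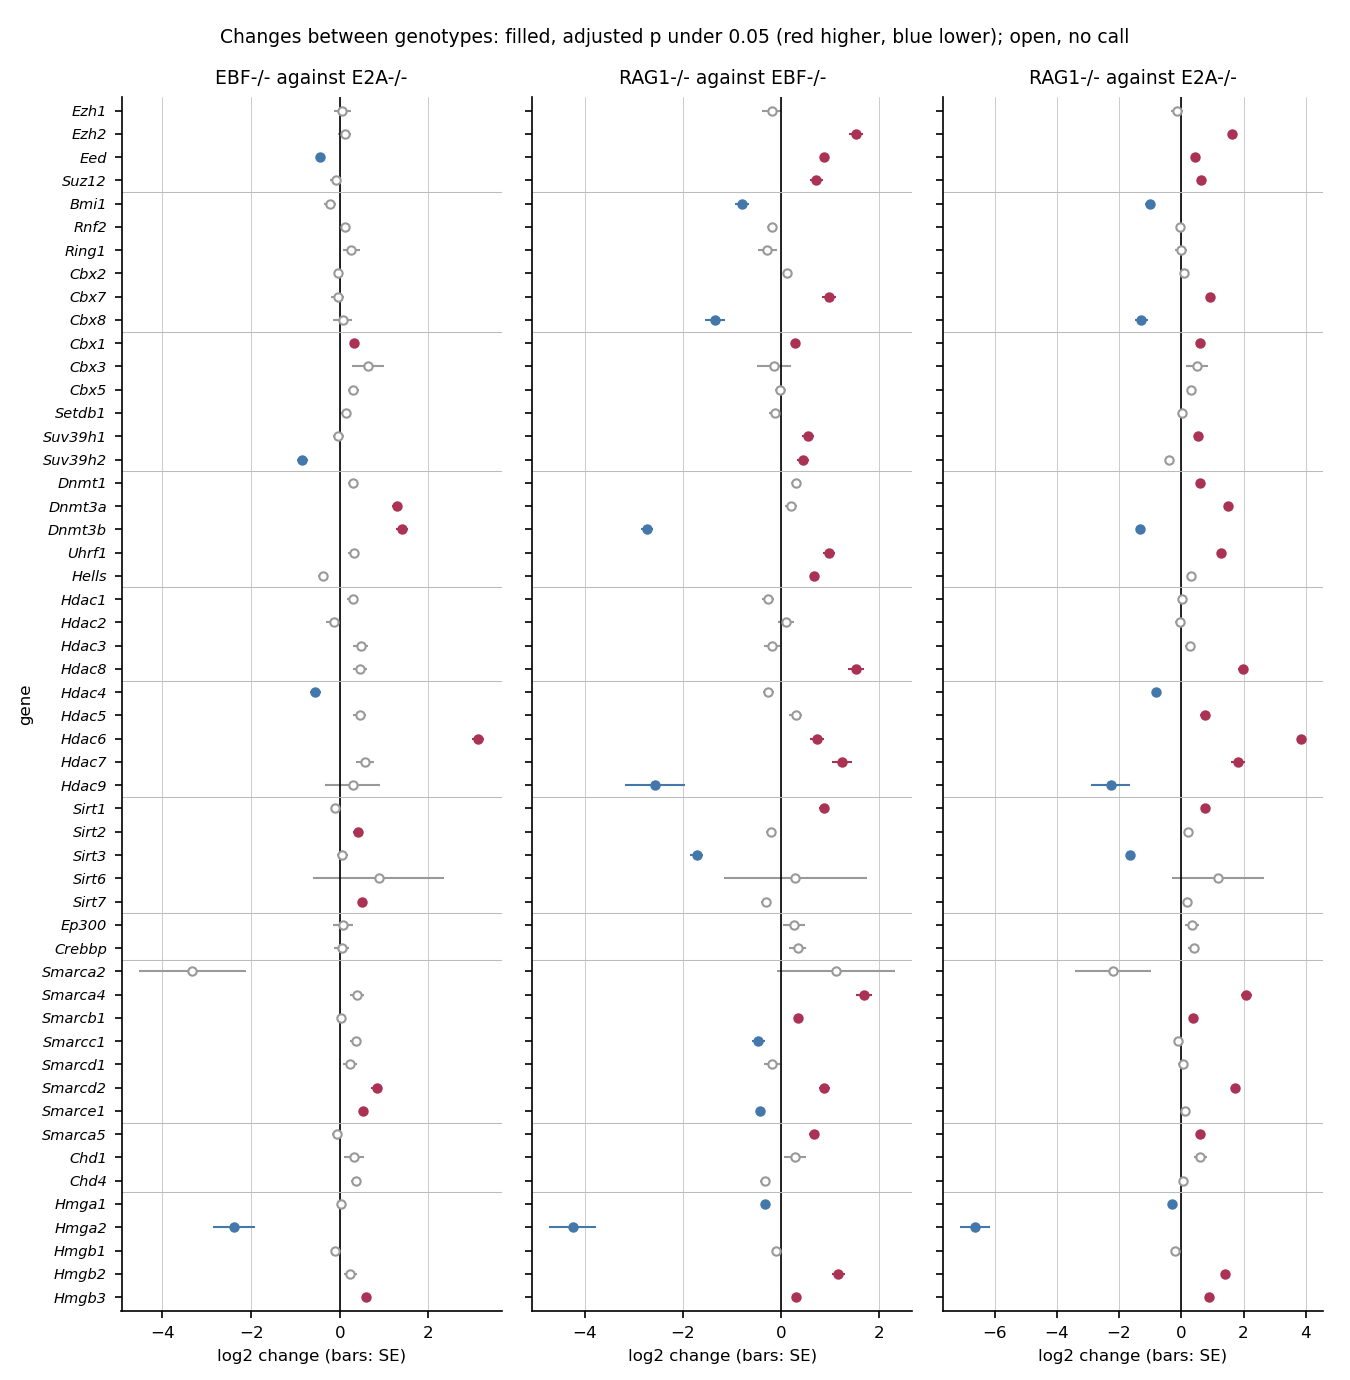
Log2 difference (horizontal axis, points) with its SE (bars) for 52 members (rows, ordered by role) in 3 comparisons of genotypes (panels, horizontal scales differ); filled points passed the limma adjusted p of 0.05. The filled points number 13, 28 and 28; among them Hdac6 and Hmga2 lie farthest from 0 in both comparisons with E2A-/-, and Hmga2 and Dnmt3b in RAG1-/- against EBF-/-.

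The strength of these calls differed between comparisons. Of the 28 members called in RAG1-/- against E2A-/-, 17 were called in the same direction under all 15 alternative settings, among them Ezh2, Bmi1, Cbx8, Dnmt3a, Dnmt3b, Hdac6, Hdac7, Hdac8, Hmga2 and Smarca4. In RAG1-/- against EBF-/- it was 10 of 28: Ezh2, Eed, Dnmt3b, Uhrf1, Hdac8, Sirt1, Sirt3, Smarca4, Hmga2 and Hmgb2. In EBF-/- against E2A-/- only Hdac6 was. Besides Hmga1, Cbx1 and Hmgb3, calls that held in fewer than 8 of the 15 were those of Sirt2 in EBF-/- against E2A-/- (5) and of Suv39h2 (7) and Smarcc1 (6) in RAG1-/- against EBF-/-. Without E2A-/- replicate 1, the sample with pro-B markers, 20 of the 28 calls in RAG1-/- against E2A-/- and 3 of the 13 in EBF-/- against E2A-/- (Dnmt3a, Dnmt3b and Hdac6) remained. Without E2A-/- replicate 2 the numbers were 18 and 3. Leaving out EBF-/- replicate 1 or 2 kept 1 of the 13, and 11 or 13 of the 28 calls in RAG1-/- against EBF-/-, and each of these fits rests on a lone sample whose spread is taken from the other groups. Without RAG1-/- replicate 2, the sample with mast cell markers, 26 and 27 of the 28 calls against EBF-/- and E2A-/- remained.

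Array 1 held E2A-/- replicate 1 and RAG1-/- replicate 1, and within it the 28 members called in that comparison had the called sign, as did 99.9% of all called genes. Within array 2, with EBF-/- replicate 1 and E2A-/- replicate 2, the 13 called members did, again with 99.9% of all called genes. The calls were made from these same samples, so the sign was nearly fixed and says nothing particular about the members. No array held both EBF-/- and RAG1-/- cells.

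Of 168 other chromatin genes listed beside the members, 160 were tested. They gave 16 higher and 14 lower in EBF-/- against E2A-/- (18.8% called), 30 and 23 in RAG1-/- against EBF-/- (33.1%) and 49 and 25 in RAG1-/- against E2A-/- (46.3%), with medians of 0.13, 0.04 and 0.13. The largest differences between EBF-/- and E2A-/- were in the remodeller Chd7 (-2.25, adjusted p = 0.00211) and the nucleosome-binding Hmgn3 (2.12, adjusted p = 0.00267). Satb1, a chromatin organiser of early lymphoid cells, was -3.41 lower in RAG1-/- than in EBF-/- (adjusted p = 0.000399) and Hmgn3 3.21 higher (adjusted p = 0.000469). The SWI/SNF subunit Smarcd3 (-2.98, adjusted p = 0.0105) and the H3K4 demethylase Kdm5b (-2.83, adjusted p = 0.000584) were also lower there, and the histone chaperone Asf1b was 1.75 higher (adjusted p = 0.00233). Of 16 histone demethylases, 3 were lower and none higher in RAG1-/- than in EBF-/- cells by the limma test. That is 18.8% called, below the 43.7% of all tested genes.

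The region lists were then read around each member. A gene's territory ran from 2 kb downstream of its most downstream probe, upstream along its strand to the nearest probe of another gene, for at most 100 kb, on mm8. A gene counted as having a region where 1 base or more lay in it. Each list is 1 library with a fixed region width, so these are counts with no test, and the lists differ in length. Territories reach the promoter only where it lies within the limit, and for 15 members the limit ended the territory. The territories of Ezh2, Hdac8 and Hmga2 held no H3K4me3 region in either cell, so a wider one, ended only by probes of RefSeq protein-coding genes and at 200 kb, was added after the data were seen.

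Marks of active promoters lay near most members. H3K4me3 regions were found for 42 of 53 members in EBF-/- cells (79.2%, beside 66.2% of tested genes) and for 44 in RAG1-/- cells (83.0%, beside 75.2%). H3K9/14ac regions were found for 45 (84.9%, beside 74.9%) and 44 (83.0%, beside 73.7%), and H3K4me2 for 44 (83.0%, beside 80.5%) and 41 (77.4%, beside 80.9%). H3K4me1 regions lay near 14 members in EBF-/- cells (beside 29.9%) and near 40 in RAG1-/- cells (beside 69.6%), where the lists hold 7544 and 23054 regions. The library labelled Input2, without antibody, had a region near 0 of 53 members (beside 0.771% of tested genes). It came from WT lymphoid cells and is not a matched control of the EBF-/- or RAG1-/- lists.

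H3K4me3 and H3K9/14ac were mostly shared between the cells whether or not the gene's RNA differed. H3K4me1 was in both lists for 14 members and in RAG1-/- only for 26 (beside 25.8% and 43.9% of tested genes). H3K4me3 was in both lists for 41 members (beside 65.5% of tested genes). It was in RAG1-/- only for Cbx7, Setdb1 and Hdac6 (beside 9.65%) and in EBF-/- only for Cbx3 (beside 0.70%). Cbx7 and Hdac6 were higher in RAG1-/- cells, 2 of the 19 higher members, beside 15.7% of all higher genes. Setdb1 and Cbx3 were not called. H3K9/14ac was in both lists for 44 members (beside 70.5% of tested genes) and in EBF-/- only for Bmi1 (beside 4.40%). Among the 19 members higher in RAG1-/- than in EBF-/- cells, 16 had H3K9/14ac in both lists, beside 69.8% of all higher genes, and among the 9 lower 5 did, beside 73.5% of all lower genes. The territories of Dnmt3b and Sirt3 held H3K4me3 and H3K9/14ac regions in RAG1-/- cells, where their RNA was lower.

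**Figure D4:**
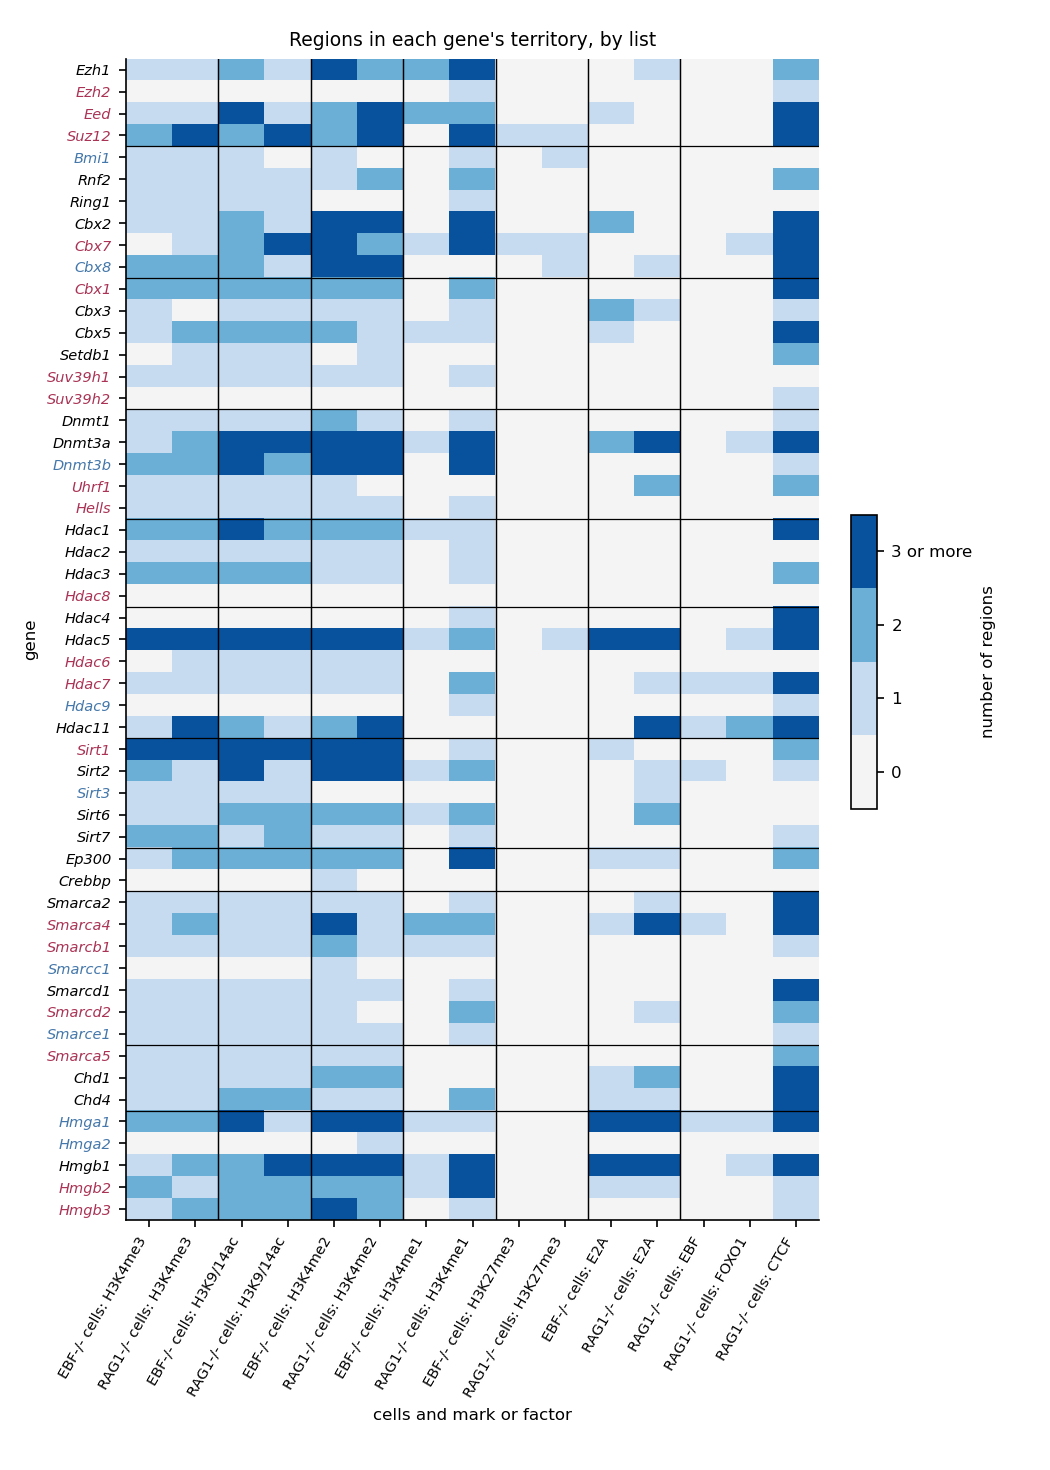
Number of regions (colour, 0 to 3 or more) in the territory of each of 53 members (rows, ordered by role) for each list of a histone mark or factor in EBF-/- or RAG1-/- cells (columns). Names in red are higher and names in blue lower in RAG1-/- than in EBF-/- cells; H3K4me3, H3K9/14ac and H3K4me2 fill most rows in both cells, and H3K27me3 is marked for 2 members in EBF-/- cells and 5 in RAG1-/-.

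H3K27me3, the PRC2 mark, was rare at the members. It lay near 2 of 53 in EBF-/- cells (3.77%, beside 3.92% of tested genes) and near 5 in RAG1-/- cells (9.43%, beside 6.92%), where the lists hold 1311 and 2130 regions. Suz12 and Cbx7 had a region in both lists, but the Cbx7 regions lay at different places. The EBF-/- region of Cbx7 (chr15:79795070-79796069, mm8) was 35.8 kb from its RAG1-/- H3K4me3 region. The RAG1-/- region of Cbx7 (chr15:79760618-79761617) was 1.33 kb from that H3K4me3 region. Bmi1, Cbx8 and Hdac5 had a region in RAG1-/- cells only. Bmi1 and Cbx8 were lower in RAG1-/- than in EBF-/- cells and Hdac5 was not called. Among the 9 members lower in RAG1-/-, 2 had a region in RAG1-/- cells only, beside 7.81% of all lower genes. Among the 19 higher members 0 did, beside 4.09% of all higher genes. These counts are by territory. Cbx7, a higher member, is left out of them, although its RAG1-/- region had no EBF-/- region at the same place.

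At Bmi1 the RAG1-/- H3K27me3 region (chr2:18595492-18596491, mm8, with the authors' score of 47) overlapped the RAG1-/- H3K4me3 region (chr2:18594713-18595712) by 221 bases, with centres 0.779 kb apart. It shared 978 bases with an H3K4me2 region of EBF-/- cells (chr2:18595470-18596469). No H3K4me2 or H3K9/14ac region of RAG1-/- cells lay in the Bmi1 territory, where EBF-/- cells had 1 of each. At Cbx8 the H3K27me3 region (chr11:118851214-118852213) lay between the probes of Cbx8 and its neighbour Cbx2, 5.19 kb from the RAG1-/- H3K4me3 region (chr11:118856402-118857401). Beside that H3K4me3 region EBF-/- cells had H3K9/14ac (chr11:118856099-118857098), while the 1 H3K9/14ac region of RAG1-/- cells in the territory lay farther upstream (chr11:118872487-118873486). At Hdac5 it lay at chr11:102060624-102061623, 4.21 kb from H3K4me3, and shared 898 bases with an EBF-/- H3K4me2 region. At Suz12 the RAG1-/- region (chr11:79789881-79790880) shared 623 bases with 1 of 3 RAG1-/- H3K4me3 regions of the territory, the one (chr11:79789504-79790503) with no overlapping H3K4me3 region in EBF-/- cells.

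With the wider territory Hmga2 joined the members with H3K27me3 in RAG1-/- cells only (chr10:119955142-119956141), 76.4 kb from its H3K4me3 region, where it shared 715 bases with an EBF-/- and 607 with a RAG1-/- H3K4me2 region. The same territory held 2 H3K9/14ac regions in EBF-/- cells, 1 of them (chr10:119879026-119880025) overlapping H3K4me3, and 0 in RAG1-/- cells. It also held an E2A region of EBF-/- cells (chr10:119814103-119814302) with no counterpart in the RAG1-/- list. Rnf2 gained a region in both lists and Ezh1 in EBF-/- only. The wider counts were 4 and 7 of 53, beside 5.19% and 9.34% of tested genes.

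**Figure D5:**
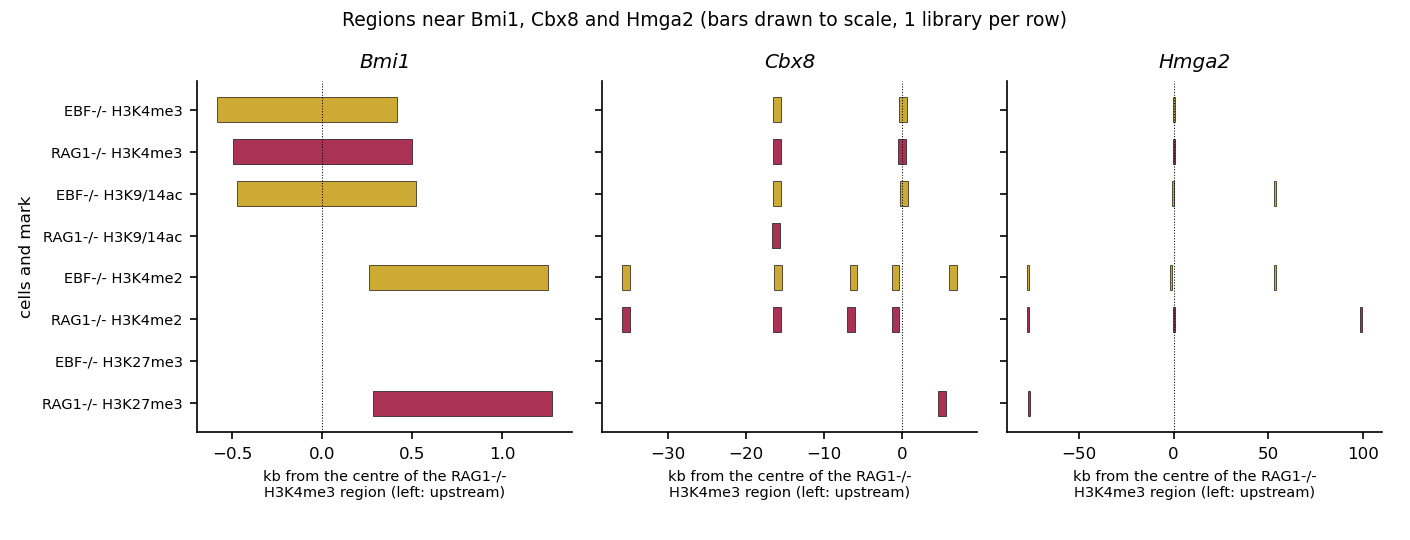
Regions near Bmi1, Cbx8 and Hmga2 drawn to scale as bars, 1 row per list, against distance in kb from the centre of the gene's RAG1-/- H3K4me3 region (left is upstream, horizontal scales differ); yellow is EBF-/- and red RAG1-/- cells. H3K27me3 appears in RAG1-/- cells only at each gene, 0.779 kb from H3K4me3 at Bmi1 and 76.4 kb from it at Hmga2, and H3K9/14ac at the centre appears in EBF-/- cells only.

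E2A regions lay near 14 of 53 members in EBF-/- cells (26.4%, beside 22.2% of tested genes) and near 20 in RAG1-/- cells (37.7%, beside 37.3%). Of these, 10 members had one in both, 4 in EBF-/- only and 10 in RAG1-/- only, beside 14.9%, 7.32% and 22.4% of tested genes. The last 10 were Ezh1, Cbx8, Uhrf1, Hdac7, Hdac11, Sirt2, Sirt3, Sirt6, Smarca2 and Smarcd2. In cells with E47-ER, E2A regions lay near 39 members after 1 h (73.6%, beside 57.8%) and 25 after 6 h (47.2%, beside 42.2%) in E2A-/- pre-pro-B cells, and near 23 after 6 h in A12 cells (43.4%, beside 43.7%). H3K4me1 regions in E2A-/- pre-pro-B cells lay near 29 members after 1 h of E47-ER (54.7%, beside 53.9%), 22 after 6 h (41.5%, beside 40.3%) and 27 after 6 h of bHLH-ER (50.9%, beside 52.3%). In A12 cells they lay near 17 after 6 h of E47-ER (32.1%, beside 28.9%) and 19 after 6 h of bHLH-ER (35.8%, beside 32.1%). The E2A lists differ in length, with 26792 regions at 1 h and 15386 at 6 h.

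EBF regions in RAG1-/- cells lay near 5 members (9.43%, beside 6.77%): Hdac7, Hdac11, Sirt2, Smarca4 and Hmga1. FOXO1 regions lay near 7 (13.2%, beside 8.54%): Cbx7, Dnmt3a, Hdac5, Hdac7, Hdac11, Hmga1 and Hmgb1. At Hdac7 an E2A region (chr15:97649335-97649534) held a FOXO1 region (chr15:97649452-97649527), with an EBF region at chr15:97653913-97654112. At Smarca4 an EBF region (chr9:21375947-21376146) overlapped an E2A region of RAG1-/- cells (chr9:21375805-21376004). At Dnmt3a an E2A region was listed in both cells (chr12:3855771-3855970 in EBF-/- and chr12:3855788-3855987 in RAG1-/-), at the same place as a FOXO1 region (chr12:3855773-3855848). CTCF regions lay near 41 members (77.4%, beside 73.7%).

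Sequence letters were counted in the 250 bases before the start of the RefSeq promoters (GRCm38.p6, both strands). These were available for 48 of 53 members, with 65 promoters. The shares set against the members are over all genes or promoters in RefSeq, not over the tested genes used for the other counts. Members were not compared with genes of like expression or promoter base content, so no excess of letters is shown to be particular to them. E2F letters (TTTCCCGC, TTTGGCGC, TTTCGCGC or TTCCCGCC, some of which can overlap) were found for 9 members (18.8%), against 3.36% of all 27025 genes and 2.92% of all 32851 promoters. These were Cbx3, Dnmt1, Hells, Hmga2, Sirt6, Smarcd1, Suv39h2, Suz12 and Uhrf1. GC box letters (GGGCGG) were found for 43 (89.6%, against 35.4% of genes and 32.7% of promoters). E-box letters CAGCTG or CAGGTG were found for 17 (35.4%, against 30.6% and 27.7%), CCAAT for 20 (41.7%, against 37.5% and 33.8%), FOXO letters GTAAACA for Eed and Hdac7 (4.17%, against 3.54% and 3.17%) and the EBF palindrome (TCCC, any 2 bases, GGGA) for Eed alone (2.08%, against 0.914% and 0.779%). Of the members with a promoter, 17 were higher in RAG1-/- cells than in both other genotypes, and 2 of these held E2F letters. Of 7 that were lower than in both, 1 did. Hells and Suv39h2, called higher in RAG1-/- cells against EBF-/- only, also held E2F letters. A match of letters is a description of the sequence and says nothing about binding, and the GRCm38.p6 windows were not placed against the mm8 regions.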

How the data were processed

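RNA was measured on Agilent 2-colour arrays, and the deposited intensity values are background-subtracted, dye-normalised signals, made per the file headers by Feature Extraction 9.5.3.1 of Agilent, with probe positions on mm8. The 6 channels with a label were taken as log2 intensity, quantile-normalised and averaged over spots; 2 unlabelled channels of arrays 3 and 4 were not used. A probe was kept where it was well above background in both samples of a genotype (22132 of 41099 probes), and the brightest probe stood for its gene. Genotypes were compared with limma 3.58.1 in R 4.3.3, with genotype and dye as terms, the array as a random block (correlation -0.03), a trended prior and Benjamini-Hochberg adjustment over 12756 genes; the fit leaves 2 residual degrees of freedom, which limits its precision. The script was tested on simulated data, in which some of the added changes were not called.

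ChIP-seq regions are the authors' deposited lists with a score per region, made with HOMER on mm8 per the submitters' processing notes and file headers. The score was used only for ranking within a list; library depth: not given in the sources used here. Promoter sequences are RefSeq's on GRCm38.p6.

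Levels in each sample are given for members called with a change of over 1.5-fold, for at most 12 in each direction per comparison by size; other members are given by differences or ranges. Of other chromatin genes, up to 6 called genes per comparison could be named. The members, gene lists, motifs and tests were chosen with earlier results of these data known. Alternatives covered scaling, background correction, the filter, probes per gene, dye, block, prior, each replicate left out, region score and territory length. Python 3.11.15 was used for regions and figures.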

Additional observations from a re-analysis of the deposited data

How the results depend on the processing

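The counts of members called were most open to the choice of samples. With each replicate left out in turn, the members called ranged from 1 to 21 in EBF-/- against E2A-/-, 12 to 32 in RAG1-/- against EBF-/- and 20 to 30 in RAG1-/- against E2A-/-, and all genes called ranged from 440 to 5316, 2294 to 6028 and 3326 to 6474. In the first comparison the lowest values came without EBF-/- replicate 2 and the highest without RAG1-/- replicate 2, and in the second the lowest came without EBF-/- replicate 1. In EBF-/- against E2A-/-, 8 members and 1965 genes were called with no filter on dim probes, 6 and 2002 with an untrended prior, and 20 members when only these 2 genotypes were fitted. With the mean over a gene's probes, RAG1-/- against EBF-/- turned sign, among members called by either rule, for Cbx5 (0.43), Smarcc1 (0.032) and Hmgb1 (0.92), and, with no call by either, for Ep300 (-0.64), Cbx2 (-0.20), Cbx3 (0.34) and Rnf2 (0.036). For Smarca2 it was -1.04 without EBF-/- replicate 2 and 3.34 without replicate 1. The cause of these shifts was not tested. With the replicate number as a block, 12, 25 and 27 members were called in the 3 comparisons. The correlations of same-numbered deviations were -0.40, 0.17 and 0.02, so the numbers do not pair the samples. For regions, the upper part of each list by score (its higher-scoring regions to the median) left 7 members with E2A in EBF-/- cells, 0 with H3K27me3 in EBF-/-, 24 with H3K4me1 in RAG1-/- and 12 and 16 with H3K4me1 and E2A after 6 h of E47-ER in E2A-/- cells. A territory of at most 50 kb left 0 with H3K27me3 in EBF-/- and 3 with EBF in RAG1-/-, and the wider territory gave 4 with H3K27me3 in EBF-/-. Signal over background limits Hdac11, Sirt6 and Hdac6 in E2A-/- cells.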
